A study of Secale cereale x Triticum turgidum subsp. durum with 39 samples.

Results

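XTH, a gene for a xyloglucan endotransglucosylase/hydrolase, was followed by the 1 probe set that the array's gene table pairs with the symbol XTH, Ta.30703.1.S1_at, out of 61204 probe sets tested. XTH is 1 of 771 gene symbols in that table. The gene was chosen by its log2 signals on these same 39 arrays, which earlier results had shown to be high in late stigmas, so its levels and differences below are a description and carry no test. RNA came from triticale, a cross of rye (Secale cereale) and durum wheat (Triticum turgidum subsp. durum), cultivar Alta, grown at 20°C by day and 18°C by night with 16 h of light. Stigmas, ovaries and anthers were collected at 4 stages named for the pollen in the anthers. TET is the tetrad stage, UNM that of the uninucleate microspore, BCP that of bicellular pollen and TCP that of tricellular pollen, and mature pollen grains (MPG) were collected as well. The 13 groups held 3 arrays each, 39 in all, which the labels call biological replicates without saying whether they came from separate plants, so the spread given here is that between these samples. TET RNA was isolated with PicoPure and labelled by a kit with a repeated amplification cycle from 50 to 100 ng. UNM and BCP RNA was isolated with RNeasy and labelled by the 3' IVT Express method from 1 µg, and TCP and MPG RNA was isolated on CsCl and labelled in a single cycle from 5 µg. Organs of the same stage therefore shared kits, and so did UNM and BCP, but TET differs from UNM, and BCP from TCP, in kits as well as stage, and these cannot be told apart.

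Xyloglucan is a hemicellulose that coats and links the cellulose microfibrils of the primary cell wall. Enzymes of the XTH family cut a xyloglucan chain and either join the cut end to another chain or pass it to water, and in plants they are known for their part in loosening and rebuilding walls while cells enlarge. The family has many related members in grasses, whose walls hold less xyloglucan than those of most other flowering plants. The stigma of grasses is a feathery organ with long receptive hairs that catch pollen. The array was designed for wheat, so the probe set reports whichever wheat and rye XTH transcripts hybridise to it, and with 1 probe set no second measure of the gene was available. In bulk organs, fewer cells with the transcript and less transcript per cell cannot be told apart.

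Values are log2 signals, so a difference of 1 is a factor of 2 in signal, and a group mean under 6 is called dim here. Over all probe sets, signals ran from 1.95 to 15.02, replicates of a group correlated with r between 0.978 and 0.996, and for each of the 39 arrays the best match was a replicate. The precision is limited by the number of arrays. Between replicates, the SD of XTH lay between 0.14 and 0.48 in the 13 groups, with a pooled SD of 0.27, while the group means spanned 7.64.

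In stigmas the XTH signal was higher at each later stage. The 3 stigma arrays read 7.95, 7.45 and 7.41 at TET, with a mean of 7.60 ± 0.30 (SD, n = 3). At UNM they read 9.09, 8.71 and 9.22, a mean of 9.01 ± 0.26 (SD, n = 3). At BCP they read 10.17, 11.13 and 10.61, a mean of 10.64 ± 0.48 (SD, n = 3), the widest spread of XTH in any group. The lowest BCP array lay above the highest UNM array, as held for 12.4% of all probe sets, and replicate 2 alone passed 11. At TCP they read 13.13, 12.998 and 12.86, a mean of 12.998 ± 0.14 (SD, n = 3), the highest level of XTH in any group. From TET to TCP the signal was 42.1-fold higher, and 218 of the other probe sets, or 0.356%, had a larger difference in stigmas over that interval. Kits as well as stage changed over that interval, and these cannot be told apart.

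In ovaries the signal was higher at UNM than at TET, was level from UNM to BCP, and was higher again at TCP. The ovary arrays read 8.18, 7.82 and 7.38 at TET (7.79 ± 0.40, SD, n = 3) and 9.08, 9.35 and 9.06 at UNM (9.17 ± 0.16, SD, n = 3). They read 8.89, 9.18 and 8.94 at BCP (9.002 ± 0.15, SD, n = 3) and 9.88, 9.58 and 9.99 at TCP (9.82 ± 0.21, SD, n = 3). The UNM and BCP arrays of ovaries overlapped. From TET to TCP, over which kits changed too, the ovary signal was 4.07-fold higher.

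Of the 3 organs, anthers had the lowest mean at each stage. Their arrays read 5.83, 5.57 and 6.04 at TET (5.81 ± 0.24, SD, n = 3) and 6.98, 6.95 and 6.59 at UNM (6.84 ± 0.22, SD, n = 3). They read 5.99, 5.37 and 5.59 at BCP (5.65 ± 0.31, SD, n = 3) and 5.12, 5.37 and 5.59 at TCP (5.36 ± 0.23, SD, n = 3). UNM was the only stage whose anther mean was not dim, and the BCP and TCP arrays overlapped. Mature pollen read 6.34, 6.18 and 6.49 (6.34 ± 0.15, SD, n = 3), above every TCP anther array and below every UNM anther array. Pollen lay above TCP anthers with no overlap for 31.3% of all probe sets. The share for pollen below UNM anthers was not counted.

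**Figure D1:**
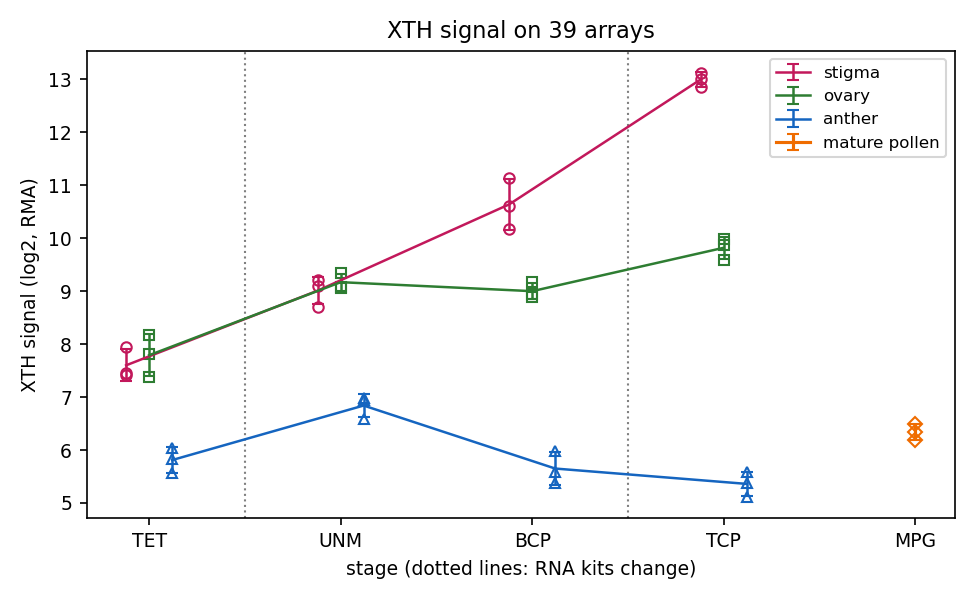
XTH signal (log2) on each of the 39 arrays (open symbols), with group means and SD bars (n = 3), by stage on the horizontal axis and by organ in colour; dotted lines mark where the RNA kits change. Stigmas and ovaries lie together at TET and UNM, the stigma mean reaches 12.998 at TCP against 9.82 in ovaries, and anthers and pollen stay below 7.

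Ordered by mean, the groups were stigma TCP, stigma BCP, ovary TCP, ovary UNM, stigma UNM, ovary BCP, ovary TET, stigma TET, anther UNM, pollen, anther TET, anther BCP and anther TCP. Stigma TCP stood 2.36 above stigma BCP, the widest gap between neighbours, and ovary BCP stood 1.21 above ovary TET. The arrays of ovary UNM, stigma UNM and ovary BCP overlapped from neighbour to neighbour, with gaps between means of 0.16 and 0.01. The same held for ovary TET and stigma TET, 0.19 apart, and for anther TET, anther BCP and anther TCP, 0.16 and 0.29 apart. The remaining neighbours did not overlap, with gaps of 0.50 to 2.36. Of these pairs, the share of all probe sets with no overlap was counted only for stigma TCP over stigma BCP, at 21.9%. The lowest stigma TCP array lay 1.73 above the highest of the other 36 arrays. Of all probe sets, 3.71% had their stigma TCP arrays above the other 36, and 127 had a wider gap than XTH.

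Over the 36 organ arrays, the sum of squares of XTH was 64.7% between organs, 14.3% between stages, 19.9% in the combination of organ and stage, and 1.1% between replicates. The medians over all probe sets were 11.3%, 32.2%, 20.8% and 19.3%. XTH thus had more of its variation between organs and less between stages than the median probe set. The gene was chosen with its high late stigma signals on these arrays known, so this is a description. Kits changed between some of the stages, and their part was not tested.

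Stigmas and ovaries differed in XTH from BCP on, and differed by less than the spread between replicates before that. At TET stigmas were 0.19 lower on the log2 scale than ovaries (log2 difference -0.19, SE 0.29, n = 3 each, SE from the SDs of the compared groups here and below). At UNM the difference was -0.16 (SE 0.18, n = 3 each), and at both stages the arrays of the 2 organs overlapped. At BCP stigmas were 3.10-fold higher (log2 difference 1.63, SE 0.29, n = 3 each) with no overlap, as held in that direction for 17.2% of all probe sets, and 1.09% of the others had a larger difference. At TCP stigmas were 9.07-fold higher (3.18, SE 0.15, n = 3 each). The lowest stigma array there lay 2.87 above the highest ovary array, against a background of 25.5% of probe sets with no overlap in that direction, and 360 probe sets, or 0.588%, had a larger difference. With limma, 5.69% of all probe sets passed an adjusted p under 0.05 with at least 2-fold higher signal in TCP stigmas than in TCP ovaries.

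The widening of the stigma excess over ovaries was 0.03 from TET to UNM, 1.79 from UNM to BCP and 1.55 from BCP to TCP on the log2 scale. For the step from UNM to BCP, in which kits were the same, 238 other probe sets, or 0.389%, widened by more. For the last step, 1082 did, or 1.77%. Since stigma and ovary of a stage shared kits, these values compare organs within kits, although the kits of TCP differ from those of BCP. At TCP the mean of the poly-A controls, meant to be added before labelling, was 5.60 in stigmas and 7.94 in ovaries. That of the hybridisation controls, spiked into the hybridisation mix, was 10.52 and 10.40. The part of these differences in the XTH values was not tested.

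Stigmas exceeded anthers at every stage, and the mean excess was larger at each later stage. The fold was 3.46 at TET (log2 difference 1.79, SE 0.22), 4.49 at UNM (2.17, SE 0.20), 31.7 at BCP (4.98, SE 0.33) and 199 at TCP (7.64, SE 0.16), with n = 3 in each group. The values at TET and UNM lay close for their SEs, and the change between stages was not tested. From UNM to BCP the anther mean was lower, 5.65 against 6.84, while the stigma mean was higher. At no stage did the arrays overlap, as held in that direction for 19.0%, 25.5%, 24.0% and 25.7% of all probe sets at the 4 stages. At TCP 71 probe sets, or 0.116%, had a larger excess in stigmas over anthers. Anther XTH was dim at TET, BCP and TCP, so these folds compare signals and are not measured ratios of transcript. By limma, 15.3% of probe sets were called higher in stigmas at TCP.

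Ovaries exceeded anthers as well. The fold was 3.94 at TET (1.98, SE 0.27), 5.01 at UNM (2.33, SE 0.16), 10.2 at BCP (3.35, SE 0.20) and 22.0 at TCP (4.46, SE 0.18), with n = 3 in each group. No arrays overlapped, and the background of no overlap in that direction was 19.7%, 22.9%, 25.1% and 26.7% of all probe sets. Here too the anther signals at TET, BCP and TCP were dim, so the folds compare signals and are not measured ratios of transcript. XTH signal was higher in both pistil organs than in anthers already at TET, while the difference between stigma and ovary was within the replicate spread at that stage.

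Mature pollen was 101-fold lower than TCP stigmas (log2 difference -6.66, SE 0.12) and 11.2-fold lower than TCP ovaries (-3.48, SE 0.15), with n = 3 in each group. Neither pair overlapped, as held in that direction for 27.4% and 29.2% of probe sets. Pollen XTH, at 6.34, was near the dim limit, so these folds compare signals and are not measured ratios of transcript. With arrays scaled on the brighter probe sets the differences were -6.22 and -2.96. On the hybridisation controls they were -7.47 and -4.41. Against TCP anthers, from which kits did not differ, pollen was 1.97-fold higher (0.98, SE 0.16), with no overlap, as for 31.3% of probe sets in that direction. Both levels were low (6.34 and 5.36), and over all probe sets the median of that difference was 0.19.

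**Figure D2:**
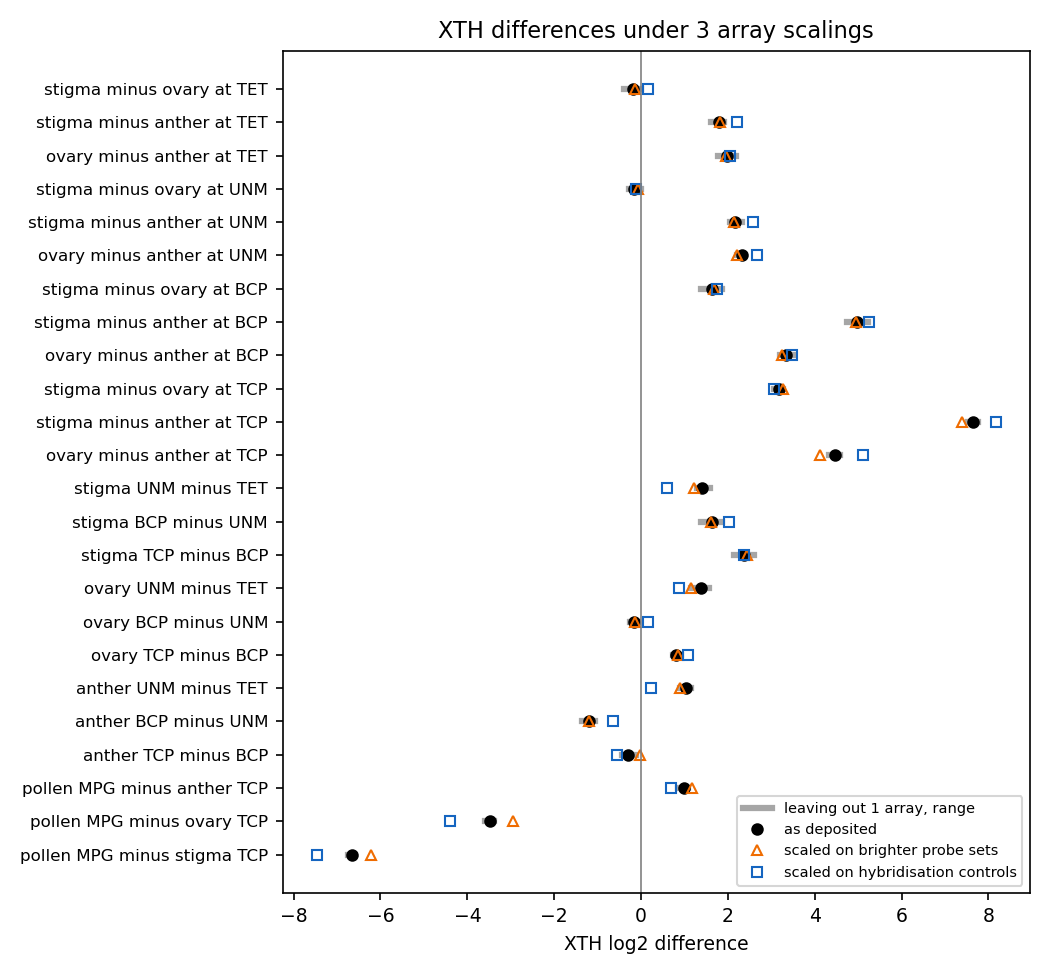
XTH log2 difference for each of the 24 comparisons, as deposited (black circles), with arrays scaled on the brighter probe sets (orange triangles) or on the hybridisation controls (blue squares); grey bars span the values with 1 array left out. The stigma excess over ovary stays at 3.06 to 3.26 at TCP under the 3 scalings, while the steps from TET to UNM depend on the scaling.

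Between successive stages, the step from UNM to BCP was the one with the same kits on both sides. XTH was 3.09-fold higher at BCP than at UNM in stigmas (log2 difference 1.63, SE 0.32, n = 3 each), with no overlap between arrays. Of all probe sets, 12.4% had no overlap in that direction, 1.89% were called higher by limma, and 358 others, or 0.585%, had a larger difference. In ovaries the difference over this step was -0.16 (SE 0.13, n = 3 each) with overlapping arrays. In anthers XTH was 2.28-fold lower at BCP (-1.19, SE 0.22, n = 3 each), with no overlap, against 18.4% of probe sets in that direction, and 3.36% had a larger difference. The anther BCP mean was dim, at 5.65, so this fold compares signals and is not a measured ratio of transcript. The anther value was -0.64 with arrays scaled on the hybridisation controls, which are spiked into the hybridisation mix. The mean of those controls went from 10.94 to 10.54 in stigmas, 10.98 to 10.66 in ovaries and 11.34 to 10.79 in anthers. The mean of the poly-A controls, which are meant to be added before labelling, differed too. It went from 5.26 to 6.60 in stigmas, 4.999 to 6.68 in ovaries and 5.81 to 6.52 in anthers. Over all probe sets the median signal at UNM was 4.87 in stigmas, 4.85 in ovaries and 4.87 in anthers. The stigma and ovary poly-A means at UNM thus lay near it, and whether these controls were added to every sample was not tested. The part of these shifts in the XTH values over this step was not tested. Over the same step stigma and anther arrays thus lay in opposite directions, and the difference between these organs was not tested.

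From BCP to TCP, where kits changed too, XTH was 5.14-fold higher in stigmas (2.36, SE 0.29, n = 3 each) and 1.76-fold higher in ovaries (0.81, SE 0.15, n = 3 each). Neither pair of groups overlapped, and the background in that direction was 21.9% in stigmas, where 5.56% were called higher by limma, and 20.9% in ovaries. In anthers the difference was -0.29 (SE 0.23, n = 3 each), with overlap and both means dim. The mean of the hybridisation controls was 10.54 at BCP and 10.52 at TCP in stigmas, 10.66 and 10.40 in ovaries, and 10.79 and 11.05 in anthers. The mean of the poly-A controls, meant to be added before labelling, was 6.60 at BCP and 5.60 at TCP in stigmas. It was 6.68 and 7.94 in ovaries, and 6.52 and 5.70 in anthers. The part of these shifts in the XTH values was not tested.

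From TET to UNM XTH was higher in each of the 3 organs, by 2.65-fold in stigmas (1.40, SE 0.23), 2.59-fold in ovaries (1.37, SE 0.25) and 2.04-fold in anthers (1.03, SE 0.19), with n = 3 in each group. The arrays of the stages did not overlap, as held in that direction for 21.6% of probe sets in stigmas, 21.0% in ovaries and 21.5% in anthers. The mean of the hybridisation controls went with this step, from 10.13 to 10.94 in stigmas, 10.49 to 10.98 in ovaries and 10.55 to 11.34 in anthers. With arrays set equal on those controls the log2 differences of XTH were 0.59 in stigmas, 0.88 in ovaries and 0.24 in anthers. Stage and kit cannot be told apart at this step.

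In stigmas XTH was 1 of 1199 probe sets, or 1.96% of all, that were higher at each of the 3 steps with no overlap between arrays. As deposited it was also 1 of the 137, or 0.224%, with at least 2-fold higher signal at each of these steps. With arrays scaled on the hybridisation controls its difference from TET to UNM was 0.59, under the factor of 2, and XTH would not be in the smaller set. Overlap was not counted with that scaling, so the place of XTH among the 1199 holds for the deposited values. There the lowest UNM stigma array lay 0.76 above the highest TET one, while the mean of those controls went from 10.13 to 10.94. Over the last 2 steps, 615 probe sets were at least 2-fold higher at both, and for 89 besides XTH both differences were at least as large as those of XTH. These counts describe where the gene lay, and the gene was chosen for this course.

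**Figure D3:**
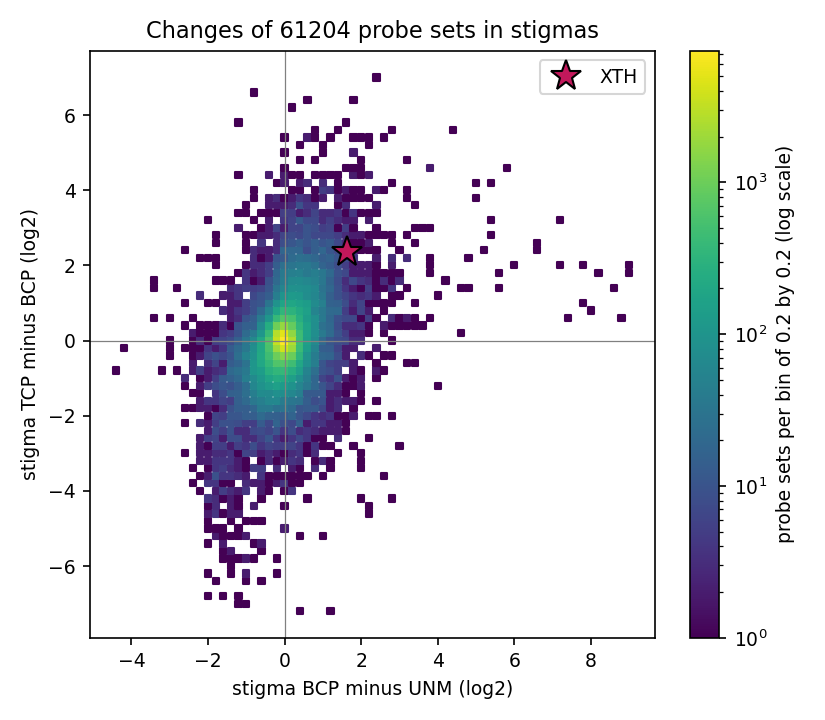
Log2 difference from UNM to BCP (horizontal) against that from BCP to TCP (vertical) in stigmas for the 61204 probe sets, as the number of probe sets per square of 0.2 by 0.2 on a log colour scale. The star is XTH, at 1.63 and 2.36, away from the dense centre at 0 but inside the cloud, with 89 other probe sets at or beyond it on both axes.

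No other cell wall gene could be set beside XTH by name. A list of 44 symbols of wall enzymes and wall proteins, among them expansins, cellulose synthases, pectin methylesterases and lignin enzymes, matched 0 of the 1273 probe sets that carry a symbol. Of the 771 symbols, 758 are locus numbers without a description.

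The probe sets most like XTH were sought by Pearson correlation over the 13 group means, among 15565 probe sets whose means span at least 2 log2 units and reach at least 8. The group means share the kits of their stage, and the correlation is a description. The median r was 0.205, 61 probe sets had r of at least 0.9, and 3 had r of -0.9 or less. The highest was Ta.8640.1.S1_a_at (r = 0.978). Its mean in stigmas was 6.19 at TET, 7.59 at UNM, 8.50 at BCP and 11.73 at TCP, against 8.69 in TCP ovaries, 4.96 in TCP anthers and 5.25 in pollen. The next was Ta.30872.1.S1_at (r = 0.975), with 4.88, 6.56, 8.28 and 10.29 in stigmas over the 4 stages and 7.91 in TCP ovaries. Both share with XTH a higher mean at each later stigma stage. At TET and UNM the ovary means of Ta.8640.1.S1_a_at, 7.01 and 8.22, were above its stigma means. Neither has a gene name in the table. In the 10 most alike, stigma TCP exceeded stigma TET by 2.36 to 5.54 and ovary TCP by 1.18 to 3.24. They were chosen by correlation over these same means, so a high stigma TCP mean follows largely from the choice. Ta.30872.1.S1_at reached the filter level of 8 only in BCP and TCP stigmas. Of the 10, 0 had a described symbol and 1 had a locus number. Which probe sets make up these 10 depended on the measure, since 4 were among the 10 by Spearman correlation, 3 after taking away stage means, 1 over the stigma and ovary groups alone and 0 without the TCP organ groups.

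The opposite course was shown by Ta.6141.2.S1_a_at (r = -0.926) and Ta.6141.2.S1_x_at (r = -0.911), whose names point to the same design sequence, so they are not independent. The first had means of 7.16, 6.03, 5.43 and 4.88 in stigmas over the 4 stages and 7.99, 8.31, 8.67 and 8.06 in anthers. It had 5.20 in TCP ovaries, so it separated anthers and pollen from both pistil organs and did not separate stigma from ovary.

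**Figure D4:**
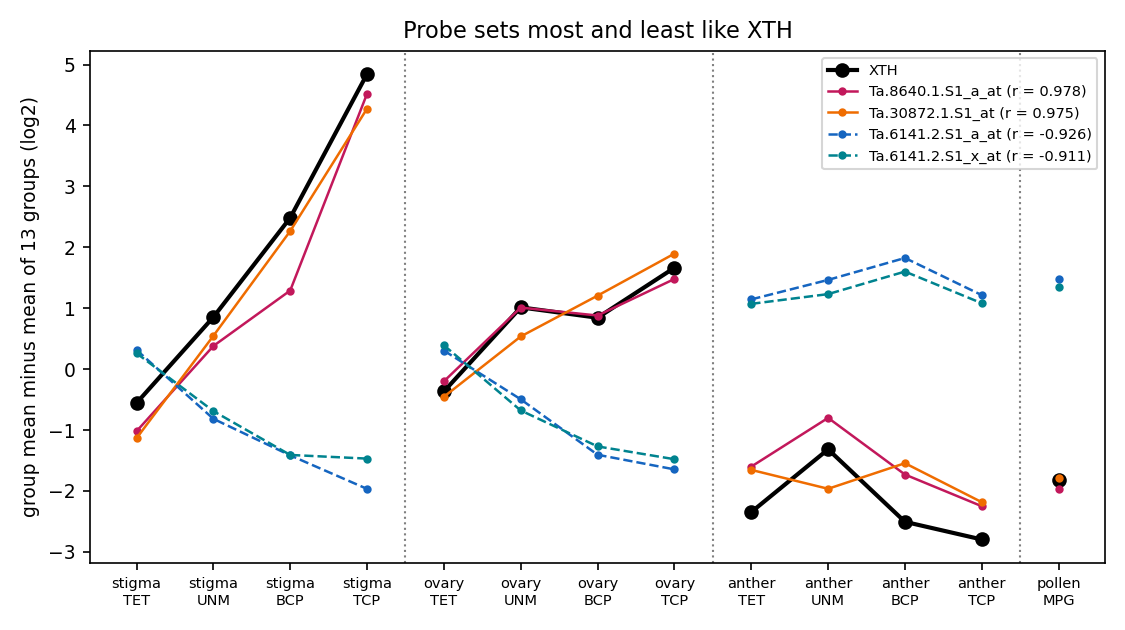
Group means of XTH (black), the 2 probe sets most like it and the 2 least like it, each minus its own mean over the 13 groups (log2); dotted lines separate stigmas, ovaries, anthers and pollen. The 2 most alike share the peak in TCP stigmas, with r of 0.978 and 0.975, and the 2 least alike are high in anthers and pollen.

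Among the 8 probe sets with a described gene symbol that passed the same filter, TUBA, an alpha-tubulin of the microtubules, was most like XTH (r = 0.723). Its stigma means were 13.21, 13.83, 14.00 and 13.46, so it did not share the TCP peak. The 2 probe sets of SAHH, the adenosylhomocysteinase of the methylation cycle, had r of 0.477 and 0.461. FBP, a fructose bisphosphatase, was read by its only probe set that passed the filter, Ta.439.1.S1_at. It had r of 0.058 over the 13 means and 0.931 over the 8 stigma and ovary means, a choice made after seeing the data. Its means were 4.93, 5.87, 7.17 and 8.87 in stigmas and 5.19, 5.84, 7.21 and 7.06 in ovaries. In anthers, where XTH was lowest among the organs, FBP reached 9.94 at UNM. TBP1, the TATA-binding protein, had r of 0.025 and petC, the Rieske protein of the chloroplast electron transport chain, -0.057. GAPN, a glyceraldehyde-3-phosphate dehydrogenase of the non-phosphorylating type, had -0.515 and CAT1, a catalase, -0.595.

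Of 26 marker names listed for other material in the organs, 6 are paired with a probe set, and these were read beside XTH. The list was made with earlier results known. Actin, by the middle (M) probe set of its control, marks late anthers and pollen here, with 13.98 ± 0.04 in TCP anthers and 13.61 ± 0.12 in pollen (SD, n = 3 each). It was at 7.15 ± 0.09 in TCP stigmas and 6.65 ± 0.07 in TCP ovaries (SD, n = 3 each), while XTH was at 6.34 in pollen itself. The actin means in stigmas were 6.37, 6.64, 6.82 and 7.15 over the 4 stages, higher at each later stage as for XTH, and 6.33, 6.19, 6.05 and 6.65 in ovaries. The part of pollen RNA in the stigma values was not tested. Sucsyn, the sucrose synthase control listed for ovaries, was at 12.39 ± 0.10 in TCP stigmas and 12.62 ± 0.04 in TCP ovaries (SD, n = 3 each). petC, listed for green tissue, was at 7.86 ± 0.18 in TCP stigmas and 10.81 ± 0.05 in TCP ovaries (SD, n = 3 each). FBP, listed with it and read by the same probe set as above, was at 8.87 ± 0.24 and 7.06 ± 0.09 (SD, n = 3 each). CAT1, listed for the tapetum, was at 4.78 ± 0.54 and 5.66 ± 0.36 (SD, n = 3 each). Of the names listed for stigmas, only CYP86-TA is paired with a probe set. By its 3' probe set CYP86-TA had means of 8.40, 10.06, 10.13 and 7.33 in stigmas over the 4 stages, against 7.64, 8.45, 8.28 and 8.04 in ovaries. It was thus below the ovary mean at TCP, where XTH was highest, and the stigma label could not be checked against any other named marker.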

How the data were processed

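The deposited table holds log2 signals of 61290 probe sets on 39 Affymetrix Wheat Genome arrays, which, per the submitters' processing notes, the authors made with RMA (version and joint or separate runs not given in the sources used here). Non-plant controls, 86 in number, were dropped. Gene names came from the platform's table of 2007. XTH levels are means of log2 values with their SD, and folds are 2 to the power of the difference. The background shares come from limma 3.58.1 under R 4.3.3 (a mean per group, 13 in all, then eBayes, with 26 residual degrees of freedom and Benjamini-Hochberg adjustment over 61204 probe sets; a call needs an adjusted p under 0.05 and at least 1 log2 unit), checked on simulated data, and from counts of probe sets whose 3 and 3 arrays do not overlap.

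The gene, the lists and the tests were chosen with earlier results of these data known. Text names follow a rule: XTH, the 2 probe sets most and the 2 least like it, the 5 most and 3 least like it among those with a described symbol, and listed genes. Scaling, filters, thresholds, moderation, a replicate block and leaving out each array were alternatives. For replicate numbers, deviations of same-numbered arrays correlated at over 0.1 in every pair only for stigma and anther at BCP (0.261, 0.104 and 0.129).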

Additional observations from a re-analysis of the deposited data

Results flagged for a closer look

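Over the step from UNM to BCP, XTH moved in opposite directions in 2 organs. The log2 difference of BCP from UNM was 1.63 in stigmas, where each BCP array lay above each UNM array. In anthers it was -1.19, and each BCP array lay below each UNM array. Of all probe sets, 12.4% had no overlap in the stigma direction and 18.4% in the anther direction. The anther BCP mean was dim, at 5.65. With arrays scaled on the hybridisation controls the differences were 2.03 in stigmas and -0.64 in anthers. The difference between the organs was not tested.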

How the results depend on the processing

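XTH has a single probe set and levels near the dim end in anthers, and array number limits the precision. Its log2 differences kept their direction in all 144 cases with 1 array left out except stigma minus ovary at TET, which ranged from -0.40 to 0.00. Scaling on the hybridisation controls moved 16 of the 24 differences by more than the spread between replicates. Within stages these became, at TET, 0.17 for stigma minus ovary, whose sign turned, and 2.21 for stigma minus anther. At UNM they became 2.57 for stigma and 2.68 for ovary, each minus anther, and at TCP 8.17 and 5.11. Between stages they became 0.59 (TET to UNM) and 2.03 (UNM to BCP) in stigmas, 0.88, 0.16, whose sign turned, and 1.08 over the 3 steps in ovaries, and 0.24 and -0.64 over the first 2 in anthers. Pollen minus TCP anther, ovary and stigma became 0.70, -4.41 and -7.47. The span of group means became 8.17. Scaling on the brighter 50% of probe sets gave 7.39 and 4.13 for TCP stigma and ovary minus anther, and -2.96 and -6.22 for pollen minus TCP ovary and stigma. The median of replicates gave 2.13 for ovary minus anther at UNM. The causes were not tested.

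Background counts without a minimum difference were 9377 higher for TCP stigma over ovary, 14867 for TCP stigma over anther, 3745 for stigma UNM to BCP and 9182 for stigma BCP to TCP. On the hybridisation controls TCP stigma over anther had 14209 and stigma UNM to BCP 3246. With the replicate block the 4 counts were 3480, 9371, 1164 and 3402, against 3480, 9371, 1159 and 3402 without it, and the pairing changed no other count by over 1.5 times. Of the 10 probe sets most like XTH, 4 (Spearman correlation), 3 (stage means taken away) and, as choices made after seeing the data, 0 (without the TCP organs) and 1 (stigma and ovary alone) were among the 10. Alternatives for other XTH probe sets and for other cell wall genes were not run, since none is named.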
